A study of Mus musculus with 40 samples.

Results

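The 10 genes described here encode the route by which cytosolic citrate is turned into fatty acids, with a pair of its regulators: Slc25a1, Acly, Me1, Acaca, Fasn, Elovl6, Scd1, Scd2, Thrsp and Srebf1. The set is a list of gene names, read by symbol from the deposited expression table, where all 10 were found among 22552 genes. The study made poly(A) RNA libraries from whole mouse mammary glands of outbred stock, 31 libraries in 12 groups, and asked about the roles of Ezh1 and Ezh2 in mammary differentiation. The table gives 1 value per gene and group, the authors' FPKM (fragments scaled by transcript length and by the number of mapped fragments). FPKM is a level per transcript length, so levels may be compared between genes.

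Every control group carried an MMTV-Cre transgene, whose viral promoter is used to drive Cre recombinase in mammary epithelium. Groups called Ezh2 KO are labelled Ezh2f/f;control and came from floxed Ezh2 mice crossed with the transgenic line A to delete Ezh2 in the mammary gland. Ezh1 KO groups are labelled E1-/-, and the groups called Ezh1 het Ezh2 KO are labelled E1+/-;E2f/f;control, with a single Ezh1 allele left. Glands came from 12-week-old virgins, from day 13 (p13) and from day 18 (p18) of pregnancy. Control and all 3 mutant genotypes were sampled on both days of pregnancy with 3 libraries per group, except p18 Ezh1 KO, which had 2. Virgin control and Ezh2 KO mice gave 2 libraries per group, before and after prolactin. In these mice the left gland was removed at estrus, without its lymph node, prolactin was injected at 5 µg per g of body weight, and the right gland was taken 2 h after the injection. Hormone, anaesthesia, surgery and gland side therefore cannot be told apart in the prolactin comparisons.

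No value has a replicate, an SD or a test. Sequencing depth is not known from FPKM, and the 12 columns summed to between 581531 and 1151971. In whole glands, fewer cells of a type and less RNA per cell cannot be told apart. Ezh1 was at 1.06 FPKM in the p13 Ezh1 KO group against 14.7 in its control, and at 0.627 against 7.37 at p18. Ezh2 was not lower in the p13 Ezh2 KO group (13.7 FPKM) than in its control (12.9), and was 6.41 against 10.0 at p18. Whole-gene values in whole tissue do not check an exon deletion in the epithelium, so Ezh2 KO means the group labelled so in every direction given below. Luminal epithelial markers (Krt8, Krt18, Epcam and others) were found in all 12 groups, with sums of 811 to 2428 FPKM, and none of them or of the adipocyte markers was at 0. Among milk protein genes Wap was at 0 in the untreated virgin control. The p13 control stood apart in tissue markers: its 6 skeletal muscle markers (Ckm, Acta1, Myh4 and others) summed to 7680 FPKM, against 1908 in p13 Ezh1 KO and 9.13 to 435 in the other groups. Its 5 red cell genes (the globins and Alas2) also had the highest sum, 2063 FPKM against 54.3 to 1448 elsewhere. Of these genes, Hba-a1 and Hba-a2 were both at 0 in p13 Ezh1 KO. Since each group is 1 pooled value, no p13 comparison with control can be made without the p13 control pool.

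De novo lipogenesis starts from citrate, which the carrier SLC25A1 exports from mitochondria and ATP citrate lyase (ACLY) splits into acetyl-CoA and oxaloacetate. Acetyl-CoA carboxylase 1 (ACACA) makes malonyl-CoA, and fatty acid synthase (FASN) builds palmitate from it with NADPH, part of which comes from malic enzyme 1 (ME1). ELOVL6 lengthens palmitate, and the stearoyl-CoA desaturases SCD1 and SCD2 add the double bond of oleate and palmitoleate. SREBF1 is a transcription factor of lipogenic genes that is activated by cleavage of its protein, and THRSP (Spot 14) is a small acidic protein known to promote lipogenesis in liver, fat and lactating mammary gland. In the mammary gland both adipocytes and secretory epithelium make fatty acids, and in the epithelium termination of FASN by the thioesterase OLAH yields the medium chains of milk fat.

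Several promoters of this pathway are known for CCAAT boxes and GC boxes beside sterol response elements, so the 250 bases before the annotated start were read from the RefSeq promoter table on GRCm38.p6. The table held 11 windows for 8 of the 10 genes, and Scd1 and Scd2 had none. Printed are 4 windows, each 5′ to 3′ on the strand of the gene: Fasn and Thrsp, which had large differences between the p13 groups, Srebf1, which spanned the narrowest range over the 12 groups, and Slc25a1, which had the most matches. Capitals mark the letters of a CCAAT box or of the GC box GGGCGG, read on either strand.
Fasn: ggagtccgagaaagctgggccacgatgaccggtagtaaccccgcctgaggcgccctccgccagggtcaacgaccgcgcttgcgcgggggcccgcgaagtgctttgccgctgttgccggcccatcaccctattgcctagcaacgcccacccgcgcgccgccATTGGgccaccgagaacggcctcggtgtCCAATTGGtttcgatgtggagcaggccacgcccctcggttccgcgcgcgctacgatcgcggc
Thrsp: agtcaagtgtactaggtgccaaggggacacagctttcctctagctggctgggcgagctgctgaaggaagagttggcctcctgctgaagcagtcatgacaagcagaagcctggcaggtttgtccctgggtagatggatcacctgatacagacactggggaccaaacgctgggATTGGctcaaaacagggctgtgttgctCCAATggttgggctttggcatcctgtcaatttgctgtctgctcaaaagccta
Slc25a1: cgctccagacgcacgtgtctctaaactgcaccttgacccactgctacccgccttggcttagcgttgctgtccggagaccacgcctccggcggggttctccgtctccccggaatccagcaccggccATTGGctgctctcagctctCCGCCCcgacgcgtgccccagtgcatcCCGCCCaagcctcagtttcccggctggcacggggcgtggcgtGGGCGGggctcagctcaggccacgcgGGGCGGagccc
Srebf1: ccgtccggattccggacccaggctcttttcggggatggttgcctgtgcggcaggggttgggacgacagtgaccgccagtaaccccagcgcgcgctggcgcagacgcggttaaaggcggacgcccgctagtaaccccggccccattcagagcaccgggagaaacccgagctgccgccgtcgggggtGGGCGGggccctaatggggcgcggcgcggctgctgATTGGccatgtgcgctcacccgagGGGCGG

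Fasn, at chr11:120824548-120824797 on the minus strand, had CCAAT 90, 62 and 59 bases before its start, counting from the first base of each match. Thrsp, at chr7:97417551-97417800 on the minus strand, had CCAAT at 79 and 52 bases. Slc25a1, at chr16:17928220-17928469 on the minus strand, had CCAAT at 125 bases and GGGCGG at 106, 79, 37 and 11. The Srebf1 window at chr11:60210472-60210721, also on the minus strand and 1 of 3 for that gene, had CCAAT at 30 bases and GGGCGG at 65 and 6. Over both strands, CCAAT was found in 6 of 11 windows and 5 of 8 genes (Slc25a1, Me1, Fasn, Thrsp and Srebf1), against 33.8% of all 32851 windows of that length. GGGCGG was in 5 windows of 4 genes (Slc25a1, Acly, Me1 and Srebf1), against 32.7%. The E-box CACGTG was in 1 window, that of Slc25a1, against 6.02%. The letters TCACNCCAC, a form of the sterol response element, and TTCNNNGAA, the STAT5 GAS motif, were in none of the 11 windows, against 1.05% and 7.02% of all. No match of one motif overlapped another motif in the printed windows, but the CCAAT matches of Fasn at 62 and 59 bases lie on opposite strands and share letters. A match is a description of the letters only.

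Across the 12 groups the 10 genes had their lowest level together in the p13 control and their highest in p13 Ezh1 het Ezh2 KO. The geometric mean of the 10 was 55.3 FPKM in the former and 359 in the latter. Between these came p18 Ezh1 KO (88.2), p18 Ezh2 KO (127), p18 Ezh1 het Ezh2 KO (138), p13 Ezh2 KO (143), p18 control (150) and virgin control after prolactin (153). Higher in the order were virgin Ezh2 KO after prolactin (165) and untreated (193), p13 Ezh1 KO (220) and the untreated virgin control (278). With no spread over libraries, which neighbours in this order differ is unknown. The p13 control was the lowest group for 8 of 10 genes and p13 Ezh1 het Ezh2 KO the highest for 9. Rescaling the groups to a common sum of FPKM left 5 genes lowest in the p13 control, and the other 3 rescalings left 8. The number highest in p13 Ezh1 het Ezh2 KO was 8 with a common sum, 7 with the sum taken without milk protein genes, 7 when scaled by ubiquitous genes and 5 with a common upper quartile. The group with the lowest and the group with the highest geometric mean were the same under the 4 rescalings tried.

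**Figure D1:**
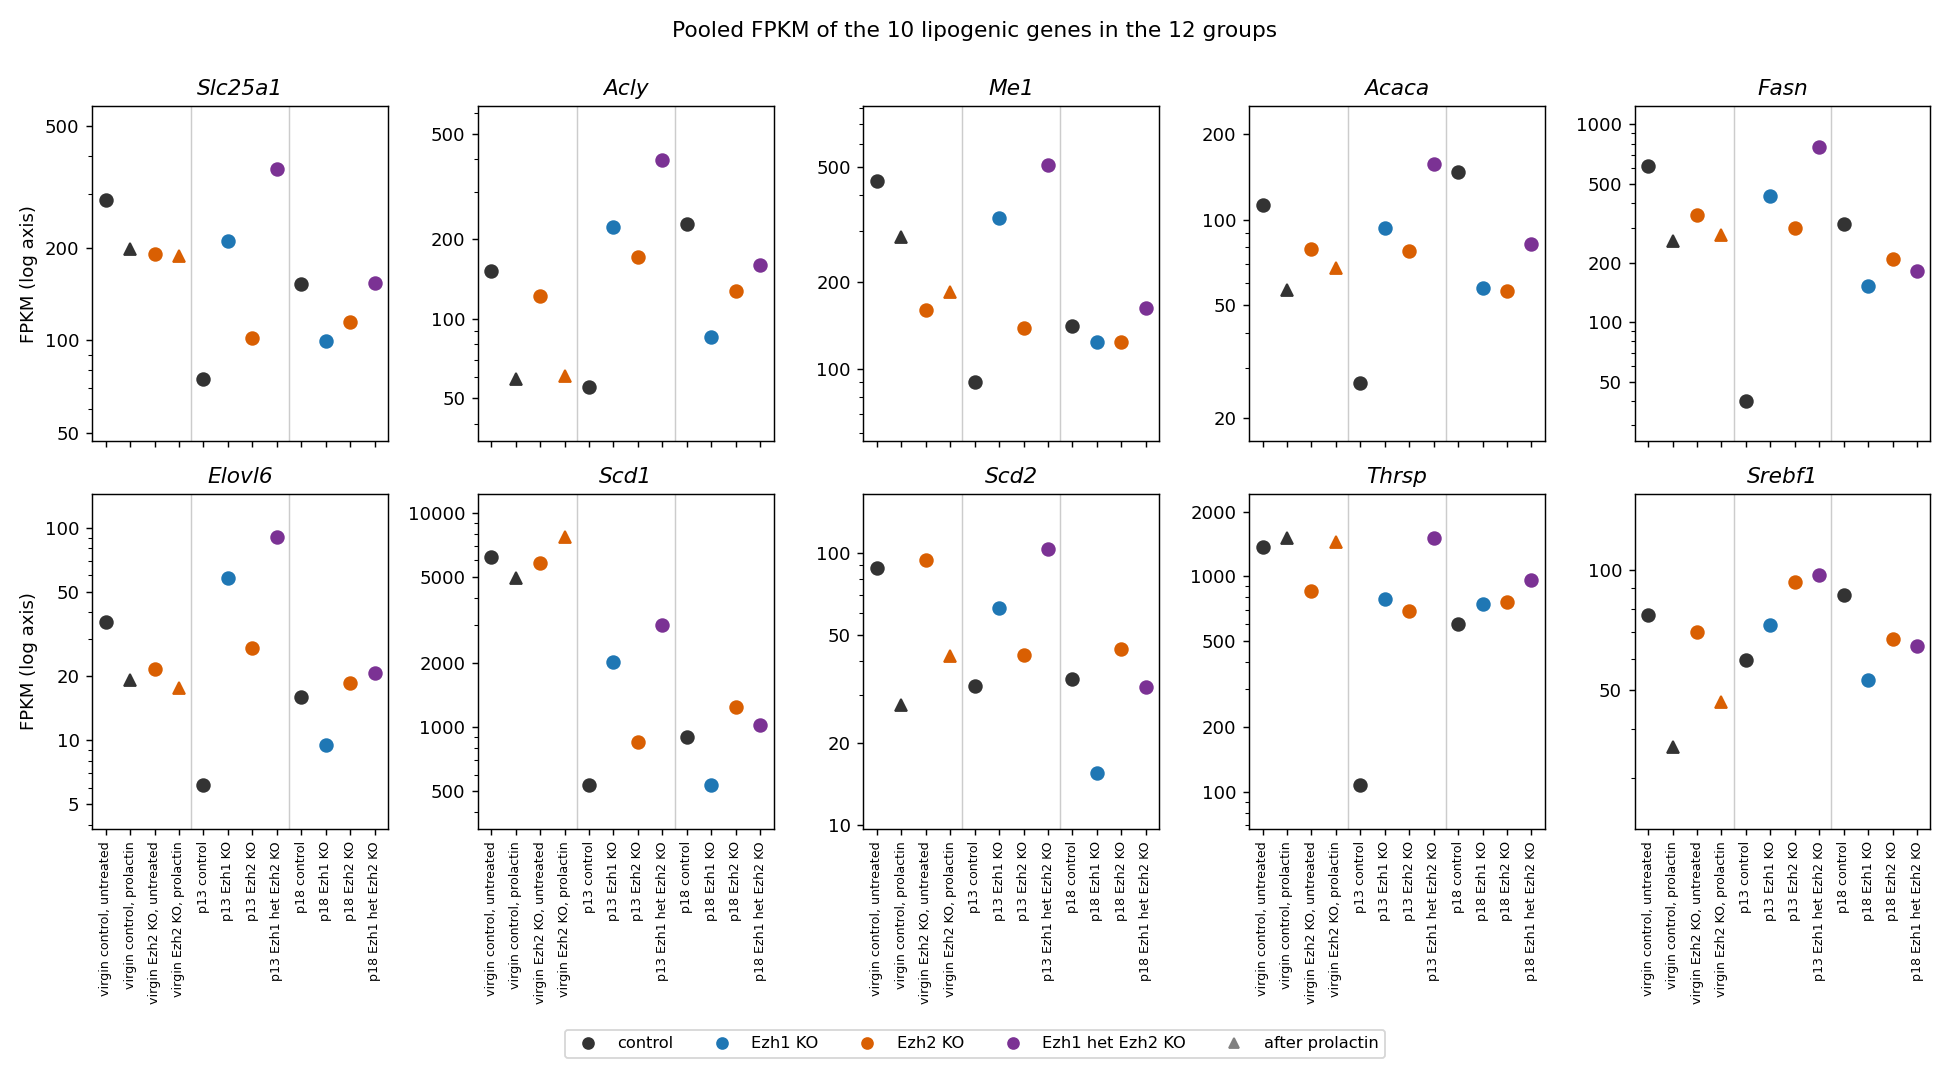
FPKM of each of the 10 lipogenic genes (vertical log axis, a separate range for each gene) in the 12 groups (horizontal axis), 1 pooled value per point, coloured by genotype, with triangles for glands taken after prolactin. The p13 control, the only black point between the grey lines, is the lowest point for 8 of the 10 genes, and the purple p13 Ezh1 het Ezh2 KO point is the highest for 9.

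In the citrate and NADPH branch, Slc25a1 was at 286 FPKM in untreated virgin control and 192 in virgin Ezh2 KO, and at 199 and 188 in the same genotypes after prolactin. The p13 values were 75.1 in control, 211 in Ezh1 KO, 102 in Ezh2 KO and 362 for Ezh1 het Ezh2 KO, and those at p18 were 153, 99.3, 115 and 154 in the same order. The citrate carrier thus spanned 4.81-fold, and its p13 values spread more widely than its p18 values.

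Acly was at 152 FPKM in untreated virgin control and 122 in virgin Ezh2 KO, and at 58.9 and 60.5 after prolactin. At p13 its values were 55.0 in control, 222 in Ezh1 KO, 171 in Ezh2 KO and 397 for Ezh1 het Ezh2 KO. At p18 they were 228, 85.1, 127 and 160. The lyase had low values in 3 groups, the p13 control and both prolactin groups, and the p18 control was its second highest group.

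Me1 was at 446 FPKM in untreated virgin control and 160 in virgin Ezh2 KO, and at 286 and 184 after prolactin. On day 13 it was 89.9 in control, 331 in Ezh1 KO, 139 in Ezh2 KO and 505 for Ezh1 het Ezh2 KO. The p18 values were 141, 124, 124 and 162. Malic enzyme was high in the untreated virgin control, p13 Ezh1 KO and p13 Ezh1 het Ezh2 KO, and all 4 p18 groups lay within a narrow range.

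Of the chain-building enzymes, Acaca was at 113 FPKM in untreated virgin control and 79.0 in virgin Ezh2 KO, and at 56.5 and 67.7 after prolactin. On day 13 it was 26.5 in control, 93.6 in Ezh1 KO, 77.5 in Ezh2 KO and 157 for Ezh1 het Ezh2 KO. At p18 the control, at 147, was above Ezh1 KO (57.5), Ezh2 KO (56.1) and Ezh1 het Ezh2 KO (81.9). The carboxylase was therefore lowest of its day in the p13 control and highest of its day in the p18 control.

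Fasn had the widest span of the 10 genes, 19.4-fold. It was at 617 FPKM in untreated virgin control and 347 in virgin Ezh2 KO, and at 257 and 275 after prolactin. The p13 level was 39.9 in control, 435 in Ezh1 KO, 299 in Ezh2 KO and 772 for Ezh1 het Ezh2 KO. The p18 levels were 315, 152, 208 and 182. The p13 control lay far under the other 11 groups, of which p18 Ezh1 KO was the nearest. The ratio of Fasn to Acaca was 1.51 in the p13 control and 2.14 to 5.44 in the other groups.

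Elovl6 and the desaturases act on the palmitate that FASN releases. Elovl6 had the lowest level of the 10 genes in all 12 groups. It was at 36.0 FPKM in untreated virgin control, 21.6 in virgin Ezh2 KO, 19.2 in control after prolactin and 17.7 in Ezh2 KO after prolactin. At p13 it was 6.15 in control, 57.8 in Ezh1 KO, 27.3 in Ezh2 KO and 90.5 for Ezh1 het Ezh2 KO, and at p18 it was 16.0, 9.49, 18.7 and 20.8. The elongase thus had its 2 highest values in p13 Ezh1 KO and p13 Ezh1 het Ezh2 KO.

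Scd1 had the highest level of the 10 genes in every group except p18 Ezh1 KO, where Thrsp was higher. In virgin glands it was at 6223 FPKM in untreated control, 5828 in Ezh2 KO, 4943 in control after prolactin and 7687 in Ezh2 KO after prolactin. Its p13 level was 536 in control, 2007 in Ezh1 KO, 852 in Ezh2 KO and 2983 for Ezh1 het Ezh2 KO. By p18 it stood at 899, 538, 1245 and 1025. All 4 virgin groups were above all 8 pregnancy groups, whereas the other 9 genes had their highest value in p13 Ezh1 het Ezh2 KO. The p13 control and p18 Ezh1 KO values were nearly equal.

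Scd2 was at 87.6 FPKM in untreated virgin control and 94.4 in virgin Ezh2 KO, and at 27.6 and 41.7 after prolactin. Its p13 values were 32.3 in control, 62.6 in Ezh1 KO, 42.2 in Ezh2 KO and 103 for Ezh1 het Ezh2 KO. At p18 they were 34.5, 15.5, 44.1 and 32.0, with the lowest value of the 12 groups in Ezh1 KO. The ratio of Scd1 to Scd2 was 16.6 in the p13 control, 20.2 to 34.7 in the other pregnancy groups, 61.7 and 71.1 in untreated virgins and 179 and 184 after prolactin. Scd1 and Scd2 are closely related genes, and the sources used here do not say how reads that fit both were assigned, so the level of Scd2 beside the far more abundant Scd1 is uncertain.

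Among the regulators, Thrsp was the second most abundant of the 10 genes in 11 groups. It was at 1365 FPKM in untreated virgin control, 854 in virgin Ezh2 KO, 1513 in control after prolactin and 1443 in Ezh2 KO after prolactin. In p13 glands it was 108 in control, 788 in Ezh1 KO, 695 in Ezh2 KO and 1515 for Ezh1 het Ezh2 KO. On day 18 it was 601, 744, 759 and 968. Spot 14 was thus lowest of its day in control at both p13 and p18, with the p13 control far under every other group.

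Srebf1 had the narrowest span, 2.71-fold. It was at 77 FPKM in untreated virgin control and 70.0 in virgin Ezh2 KO, and at 35.9 and 46.8 after prolactin. On day 13 it was 59.6 in control, 72.7 in Ezh1 KO, 93.6 in Ezh2 KO and 97.3 for Ezh1 het Ezh2 KO, and at p18 it was 86.7, 53.0, 67.1 and 64.7. Its 2 lowest groups were those after prolactin, not the p13 control. The gene value sums the SREBP-1a and SREBP-1c transcripts and gives no measure of the cleaved protein.

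The comparison of genotypes at p13 asks how the genes stood in the groups labelled Ezh1 KO, Ezh2 KO and Ezh1 het Ezh2 KO. All 10 genes were above control in each of the 3 knockout groups, and Fasn, Elovl6 and Thrsp had the largest differences in every one. Differences are in log2(FPKM + 1), knockout minus control, and a gene is counted where the difference is 1 or more in size, about a 2-fold ratio. In Ezh2 KO 5 of 10 genes passed that size upwards and 0 downwards, with a median difference of 1.09. Of the 14273 genes that reached 1 FPKM in any group, 2.65% were higher and 6.59% lower, with a median of 0.01. The 5 genes were Fasn (difference 2.88, 7.5-fold), Thrsp (2.68, 6.44-fold), Elovl6 (1.98, 4.44-fold), Acly (1.62, 3.11-fold) and Acaca (1.52, 2.93-fold). The other 5, Scd1 (0.67), Srebf1 (0.64), Me1 (0.62), Slc25a1 (0.44) and Scd2 (0.38), were less than 2-fold apart.

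Ezh1 KO had 8 of 10 genes higher and 0 lower at p13, with a median of 1.89, where 2.10% of all genes were higher and 2.28% lower (median -0.02). Fasn was 10.9-fold higher (difference 3.41), Elovl6 9.40-fold (3.04) and Thrsp 7.31-fold (2.86). Acly (1.99), Scd1 (1.90), Me1 (1.87), Acaca (1.78) and Slc25a1 (1.48) were also past 2-fold, while Scd2 (0.93) and Srebf1 (0.28) were not. Me1, Scd1 and Slc25a1 were thus counted in Ezh1 KO and not in Ezh2 KO, at 331 against 139, 2007 against 852 and 211 against 102 FPKM. Whether these knockout groups differ was not tested.

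In Ezh1 het Ezh2 KO 9 of 10 genes passed the threshold upwards at p13 and 0 downwards, with a median of 2.50, where 3.12% of all genes were higher and 3.19% lower (median -0.01). Fasn was 19.4-fold higher (4.24), Thrsp 14-fold (3.80) and Elovl6 14.7-fold (3.68). Acly was 7.23-fold higher, Acaca 5.92-fold, Me1 5.61-fold, Scd1 5.57-fold, Slc25a1 4.81-fold and Scd2 3.18-fold. Srebf1 alone was not counted, at 97.3 against 59.6 FPKM (0.70). The 3 comparisons share the p13 control, so their common direction is not 3 separate observations.

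A comparison that leaves the p13 control out is that of Ezh1 het Ezh2 KO with Ezh2 KO at p13. There 9 of 10 genes were higher in Ezh1 het Ezh2 KO and 0 lower, with a median of 1.31, where 2.80% of all genes were higher and 0.666% lower (median 0.00). Me1 was 3.64-fold higher, Slc25a1 3.53-fold, Scd1 3.5-fold and Elovl6 3.32-fold. Fasn (2.58-fold), Scd2 (2.43-fold), Acly (2.33-fold), Thrsp (2.18-fold) and Acaca (2.02-fold) followed, and Srebf1 was at 97.3 against 93.6 FPKM. Skeletal muscle markers summed to 17.0 FPKM in the former and 13.4 in the latter, so both pools were near the low end of that list. Other lists differed between them: 4 of 12 adipocyte and 6 of 6 lymphocyte markers were higher in Ezh1 het Ezh2 KO (medians 0.89 and 1.48), and 5 of 7 milk protein genes were lower (median -1.11). Liver markers were higher for 3 of 6 genes (median 1.27) and macrophage markers for 2 of 4 (median 0.87), while 3 of 6 brown fat markers were lower (median -1.12), with Ucp1 at 1.88 against 65.5 FPKM. Of 5 red cell genes 2 were higher, Hba-a2 and Hbb-b2, and 1 lower, Hba-a1. The part of these lists was not tested.

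**Figure D2:**
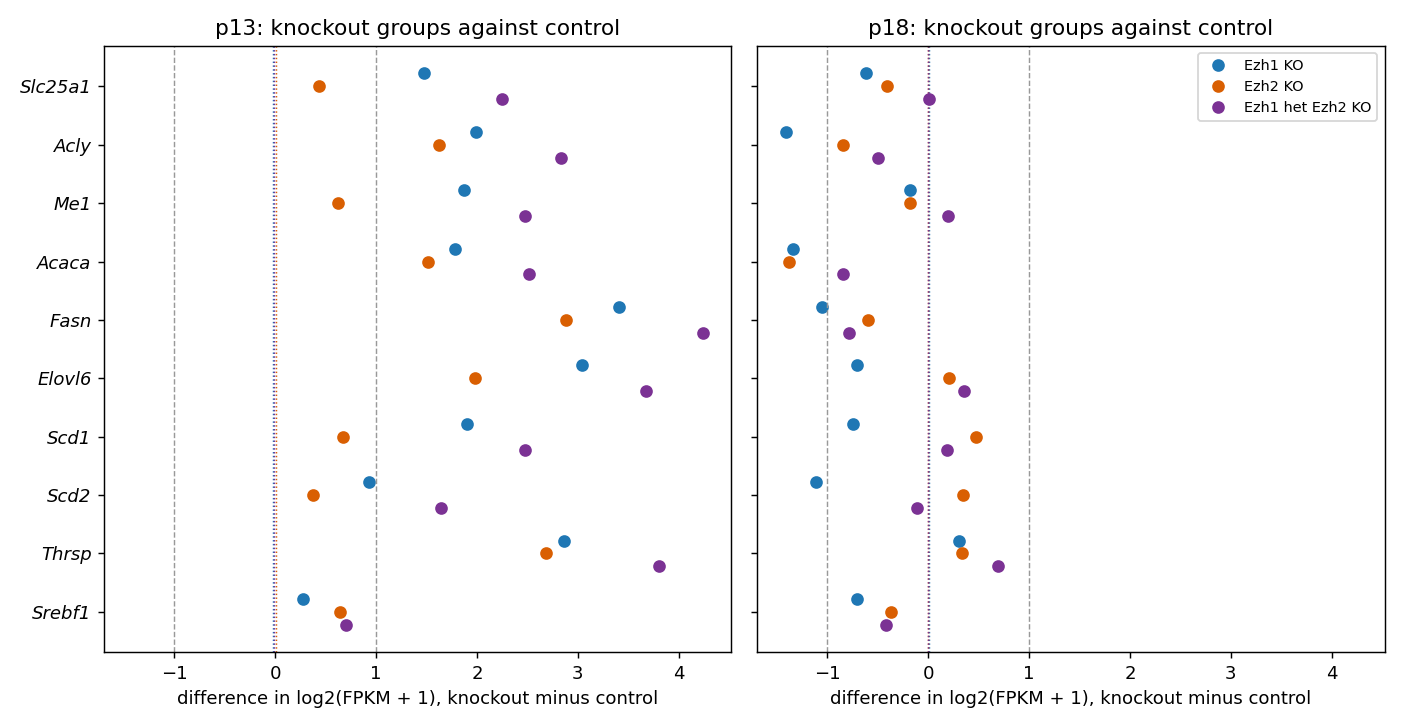
Difference in log2(FPKM + 1) from the control of the same day (horizontal axis) for each of the 10 genes in Ezh1 KO, Ezh2 KO and Ezh1 het Ezh2 KO at p13 (left) and p18 (right), from 1 pooled value per group. Dashed lines mark a difference of 1 and dotted lines the median over 14273 genes. All 30 points at p13 lie above 0, up to 4.24 for Fasn, while at p18 they lie between -1.41 and 0.69.

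Markers of other cell types differed between the same p13 groups, and their part in the lipogenic differences was not tested. The 12 adipocyte markers, Adipoq, Lep, Plin1 and Fabp4 among them, had sums of 31872 FPKM for control, 19962 for Ezh1 KO, 12510 for Ezh2 KO and 22515 for Ezh1 het Ezh2 KO, with none at 0. Against control, 9 of them were lower by at least 1 log2 unit in Ezh2 KO (median -1.35), 4 in Ezh1 KO (median -0.78) and 2 in Ezh1 het Ezh2 KO (median -0.66), and 0 were higher. Lep, which encodes leptin, was 6.69-fold lower in Ezh2 KO and Plin4, a lipid droplet protein gene, 6.13-fold lower. By any amount, 12 of 12 adipocyte markers lay under control in Ezh2 KO, 10 in Ezh1 KO and 9 for Ezh1 het Ezh2 KO, where the 10 lipogenic genes lay above it. The 7 milk protein genes summed to 10500, 18701, 105913 and 47444 FPKM in the 4 groups, and 7, 2 and 7 of 7 were higher in Ezh2 KO, Ezh1 KO and Ezh1 het Ezh2 KO. The geometric means of the lipogenic genes in these groups, in the same order, were 55.3, 220, 143 and 359 FPKM. The 7 luminal epithelial markers summed to 1386 FPKM in control, 1600 in Ezh1 KO, 2428 in Ezh2 KO and 1410 for Ezh1 het Ezh2 KO.

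All 6 skeletal muscle markers were lower than control in each p13 knockout group, with medians of -1.97 in Ezh1 KO, -8.58 in Ezh2 KO and -8.37 for Ezh1 het Ezh2 KO. The list held 1.14% of all FPKM of the p13 control pool. All 6 liver markers were higher in p13 Ezh1 KO (median 4.31), where they summed to 382 FPKM, the highest of the 12 groups. Of 6 lymphocyte markers 5 were higher in p13 Ezh1 het Ezh2 KO (median 1.70), summing to 45.8 FPKM against 11.2 in control. Of 4 macrophage markers 3 were lower in p13 Ezh2 KO (median -1.04). Of 5 red cell genes 2 were lower in Ezh1 KO, 4 in Ezh2 KO and 3 for Ezh1 het Ezh2 KO, where 1 was higher. The globin genes Hba-a1 and Hba-a2 were at 1320 and 0.0620 FPKM in control and both at 0 in Ezh1 KO. For Ezh1 het Ezh2 KO they were at 0.340 and 174. How reads that fit both were assigned is not given, so the counts and sums of red cell genes are uncertain. Of 6 brown fat markers 2 were higher in Ezh2 KO, with Ucp1 at 65.5 against 0.499 FPKM, while 1 was lower in Ezh1 KO and 2 for Ezh1 het Ezh2 KO. The skeletal muscle list thus lay below control in all 3 knockout groups, as the lipogenic genes lay above it. Fasn per unit of the adipocyte gene Adipoq was 0.0144 in the p13 control, 0.292 in Ezh1 KO, 0.405 in Ezh2 KO and 0.452 for Ezh1 het Ezh2 KO.

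At p18 the genotypes no longer separated in the same way. In Ezh2 KO 1 of 10 genes, Acaca, was past the threshold downwards (difference -1.38, 56.1 against 147 FPKM) and 0 were higher, with a median of -0.27, where 2.38% of all genes were higher and 2.14% lower. Acly (-0.84) and Fasn (-0.60) were the next lowest, and Scd1 (0.47), Scd2 (0.35), Thrsp (0.34) and Elovl6 (0.21) lay above control. With a common sum Me1 also lay above it and the median was 0.04. Cell markers differed as well: 6 of 12 adipocyte markers were higher (median 1.01, none lower) and 4 of 7 milk protein genes lower (median -1.01). Of 5 red cell genes 4 were higher (median 4.50), and 5 of 6 skeletal muscle markers were lower (median -1.82). Of 6 brown fat markers 3 were higher (median 1.20), with Ucp1 at 32.4 against 0.964 FPKM. Whether these bear on the lipogenic values was not tested.

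In p18 Ezh1 KO 4 of 10 genes were lower and 0 higher (median -0.72), where 1.21% of all genes were higher and 1.39% lower. Acly was 2.68-fold lower (-1.41), Acaca 2.56-fold (-1.34), Scd2 2.23-fold (-1.11) and Fasn 2.08-fold (-1.05). Scd1 (-0.74), Srebf1 (-0.70), Elovl6 (-0.70), Slc25a1 (-0.62) and Me1 (-0.18) were below control by less, and Thrsp (0.31) was above it. This group had 2 libraries. By any amount, this genotype lay above control in all 10 genes at p13 and below it in 9 at p18. The medians of all genes in these comparisons were -0.02 at p13 and 0.0049 at p18. All 6 skeletal muscle markers (median 1.55) and 4 of 5 red cell genes (median 2.11) were higher in this group, as were 2 of 12 adipocyte markers, and their part was not tested.

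In p18 Ezh1 het Ezh2 KO 0 of 10 genes were counted in either direction (median -0.05), where 1.23% of all genes were higher and 1.55% lower. The lowest were Acaca (-0.84) and Fasn (-0.78) and the highest Thrsp (0.69). With a common sum, a common sum without milk protein genes or a scaling by 14 ubiquitously expressed genes, 2 genes passed the threshold downwards, and Slc25a1, Me1 and Scd1 changed sign, as did Elovl6 in the second of these. All 6 skeletal muscle markers were lower than control here (median -1.77), and 4 of 6 lymphocyte markers were higher (median 1.29), and their part was not tested. Against p18 Ezh2 KO, Ezh1 het Ezh2 KO also had 0 genes in either direction (median 0.24), where 1.16% of all genes were higher and 1.40% lower. That median was -0.29 with a common sum, so no direction is given for it.

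Untreated virgin Ezh2 KO glands had 9 of 10 genes below control, though by small amounts. Me1 alone was past the threshold (-1.47, 160 against 446 FPKM) and 0 were higher, with a median of -0.54. Of all genes 3.35% were higher and 0.911% lower, with a median of 0.00. Fasn (-0.83), Elovl6 (-0.71) and Thrsp (-0.68) followed, and Scd2 (0.11) was above control. In the glands taken after prolactin 0 of 10 genes were counted either way (median 0.07), where 0.764% of all genes were higher and 2.71% lower. There Me1 (-0.63) was again the lowest and Scd1 (0.64) the highest. Lymphocyte markers went in opposite directions in these 2 comparisons, with 6 of 6 higher in untreated Ezh2 KO (181 against 13.3 FPKM in sum) and 6 of 6 lower after prolactin (6.42 against 153). Brown fat markers were higher in Ezh2 KO in both, 4 of 6 untreated and 6 of 6 after prolactin, with Ucp1 at 210 against 2.0 and 347 against 67.8 FPKM. Untreated Ezh2 KO also had 5 of 6 liver markers and 6 of 7 milk protein genes higher. The part of these markers in the lipogenic values was not tested.

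In virgin control mice the gland taken after prolactin had lower values than the opposite untreated gland for 9 of the 10 genes. Scd2 (-1.63, 3.17-fold lower), Acly (-1.35, 2.57-fold), Fasn (-1.26, 2.40-fold) and Srebf1 (-1.08, 2.14-fold) passed the threshold downwards and 0 genes upwards. The median was -0.93, where 4.76% of all genes were higher and 1.72% lower (median 0.00). The number lower depended on the scaling. It was 5 with a common upper quartile, and 6 with a common sum, with that sum without milk protein genes and with ubiquitous genes. Acaca (-0.99), Elovl6 (-0.87), Me1 (-0.64), Slc25a1 (-0.52) and Scd1 (-0.33) were below the untreated gland by less, and Thrsp (0.15) was above it, a sign that turned with a common sum, with the sum without milk protein genes and with the ubiquitous genes. In Ezh2 KO mice 2 genes were lower, Scd2 (-1.16, 2.26-fold) and Acly (-1.0, 2.02-fold), and 0 higher, with a median of -0.25, where 2.75% of all genes were higher and 4.08% lower. Srebf1 (-0.57) and Fasn (-0.34) were below, while Thrsp (0.76), Scd1 (0.40) and Me1 (0.20) were above, Me1 not so with a common sum. Scd2 and Acly were lower in both genotypes, and whether the genotypes differ in the rest was not tested.

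Insig1, which encodes a protein that holds the SREBP complex in the endoplasmic reticulum and is itself an SREBP target, was also lower after prolactin in both genotypes, 20.8 against 65.4 FPKM in control (-1.61) and 20.9 against 57.1 in Ezh2 KO (-1.41). Idh1, a cytosolic source of NADPH, was 92.4 against 257 and 84.2 against 171 FPKM. Acacb, the mitochondrial acetyl-CoA carboxylase that restrains fatty acid oxidation, went the other way, 22.9 against 8.99 FPKM in control (1.26) and 46.0 against 14.7 in Ezh2 KO (1.58). Lymphocyte markers were higher after prolactin in control (6 of 6, median 2.93) and lower in Ezh2 KO (6 of 6, median -3.53). The summed adipocyte markers were 50377 FPKM before and 56545 after prolactin in control, and 36003 and 59807 in Ezh2 KO. Of 6 skeletal muscle markers 5 were lower after prolactin in control and 3 in Ezh2 KO, but Acta1 was higher, at 273 against 13.0 FPKM and 431 against 8.46. Through Acta1 the sum of the list was higher after prolactin, 278 against 49.8 FPKM in control and 435 against 29.4 in Ezh2 KO. Liver markers were lower for 5 of 6 genes in Ezh2 KO, and brown fat markers were higher for 3 of 6 in control and 2 of 6 in Ezh2 KO. What these lists bear on the comparison was not tested. Of the 12 adipocyte markers, 1 was counted as higher in each genotype (Cidec, a lipid droplet protein gene) and 0 as lower.

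**Figure D3:**
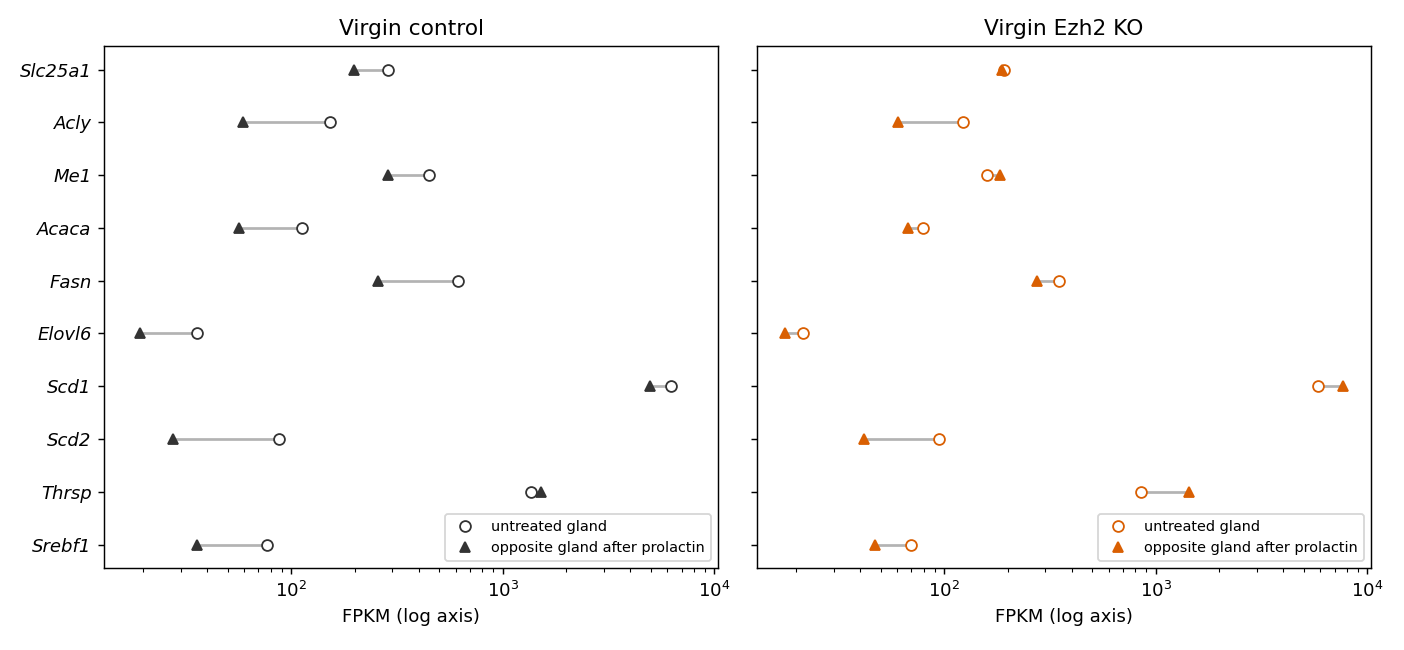
FPKM (horizontal log axis) of the 10 genes in the untreated virgin gland (open circles) and in the opposite gland 2 h after prolactin (triangles), for control (left) and Ezh2 KO (right), 1 pooled value per point. Scd2 and Acly shift to lower values in both panels, and Thrsp is the only gene to the right of its untreated value in control.

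Across the stages of the control, all 10 genes had their lowest FPKM at p13. Most lay between p13 and the untreated virgin gland at p18, but Acly, Acaca and Srebf1 lay above both. From virgin to p13, 9 of 10 genes were lower and 0 higher (median -2.18), where 9.12% of all genes were higher and 2.76% lower (median 0.17). Fasn was 15.4-fold lower (-3.92), Thrsp 12.6-fold (-3.65), Scd1 11.6-fold (-3.54), Elovl6 5.85-fold (-2.37) and Me1 4.96-fold (-2.30). Acaca (4.28-fold), Slc25a1 (3.81-fold), Acly (2.76-fold) and Scd2 (2.71-fold) were also lower, and Srebf1 (-0.36) was not counted. Of the adipocyte markers only Retn and Cfd were lower by that much (2 of 12, median -0.48), while 7 of 7 milk protein genes, 6 of 6 skeletal muscle markers (median 7.23) and 4 of 5 red cell genes (median 1.88) were higher. Their part was not tested.

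From p13 to p18 in control, 6 of 10 genes were higher and 0 lower (median 1.13), where 3.55% of all genes were higher and 19.1% lower (median -0.46). Fasn was 7.88-fold higher (2.95), Thrsp 5.57-fold (2.47), Acaca 5.56-fold (2.43), Acly 4.14-fold (2.03), Elovl6 2.60-fold (1.25) and Slc25a1 2.03-fold (1.01). Scd1 (0.75), Me1 (0.64), Srebf1 (0.53) and Scd2 (0.09) were higher by less. With a common sum 4 genes passed the threshold, and Scd2 and Srebf1 changed sign. With an upper quartile or ubiquitous genes 9 passed it. In the same interval 12 of 12 adipocyte markers were lower (median -2.56) and 7 of 7 milk protein genes higher (median 5.96), while 6 of 6 skeletal muscle markers (median -7.49) and 4 of 5 red cell genes (median -4.52) were lower. What these bear on the members was not tested. Fasn per Adipoq was 0.192 in the untreated virgin control, 0.0144 at p13 and 0.946 at p18.

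Both of these steps share the p13 control, and the p18 and virgin controls were also compared directly. There 5 of 10 genes were lower at p18 and 0 higher (median -1.05), where 7.80% of all genes were higher and 17.8% lower (median -0.25). These were Scd1 (6.92-fold, -2.79), Me1 (3.17-fold, -1.66), Scd2 (2.54-fold, -1.32), Thrsp (2.27-fold, -1.18) and Elovl6 (2.25-fold, -1.12). Fasn (-0.97) and Slc25a1 (-0.90) were below virgin by less, while Acly (0.58), Acaca (0.37) and Srebf1 (0.17) were above it, and with a common sum these 3 turned to below it. The number lower was 2 with a common upper quartile. Between the same 2 groups the adipocyte sum was 5993 FPKM at p18 against 50377 in virgins, with 12 of 12 markers lower (median -3.17), and the milk protein sum was 457129 against 55.6. Of 5 red cell genes 4 were lower (median -2.65), as were 3 of 6 liver markers. What these bear on the members was not tested.

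Stage comparisons within the knockout groups follow, and of these only Ezh2 KO had virgin glands. In Ezh2 KO from virgin to p13, 2 genes were lower, Scd1 (-2.77) and Scd2 (-1.14), and 0 higher (median -0.21), where 11.0% of all genes were higher and 9.11% lower. Each of the 4 rescalings gave 3 genes lower. Fasn was at 347 FPKM before and 299 at p13, while 12 of 12 adipocyte, 6 of 6 liver and 6 of 6 lymphocyte markers were lower (medians -1.70, -3.16 and -3.10). All 7 milk protein genes and 5 of 7 luminal markers were higher. From p13 to p18 in Ezh2 KO, 0 genes were counted either way (median -0.29), where 1.10% of all genes were higher and 4.10% lower (median -0.45), and the median turned to 0.21 with a common upper quartile.

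In Ezh1 KO 7 of 10 genes were lower at p18 than at p13 and 0 higher (median -1.39), where 1.56% of all genes were higher and 12.1% lower (median -0.48). Elovl6 was 6.09-fold lower, Scd2 4.04-fold, Scd1 3.73-fold, Fasn 2.87-fold, Me1 2.67-fold, Acly 2.61-fold and Slc25a1 2.13-fold. With a common upper quartile 4 were lower, and Thrsp and Srebf1 turned to above p13. All 6 liver, 6 skeletal muscle and 4 macrophage markers were lower as well (medians -4.92, -3.98 and -1.47). The milk protein genes were all higher, from 3.49 for Csn1s1 to 10.05 for Wap. In Ezh1 het Ezh2 KO 7 were lower and 0 higher (median -1.42), where 1.66% of all genes were higher and 16.0% lower (median -0.48). Elovl6 (4.34-fold), Fasn (4.23-fold), Scd2 (3.21-fold), Me1 (3.12-fold), Scd1 (2.91-fold), Acly (2.48-fold) and Slc25a1 (2.35-fold) were those 7. Under the rescalings the number lower ran from 5 with a common upper quartile (median -1.02) to 10 with a common sum (median -2.23). Of 4 macrophage markers 4 were lower (median -1.34), as were 4 of 5 red cell genes, while the globin gene Hba-a1 was higher. Here too the milk protein genes were all higher, from 2.74 for Csn1s1 to 7.76 for Wap. The part of these markers was not tested. The p18 pools thus lay above p13 in control and below it in Ezh1 KO and Ezh1 het Ezh2 KO for these genes. Whether the stage differences differ between genotypes was not tested. Adipocyte markers were lower at p18 in all 3 of these genotypes, with 12 of 12 past the threshold in control, 8 for Ezh1 KO and 10 for Ezh1 het Ezh2 KO.

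**Figure D4:**
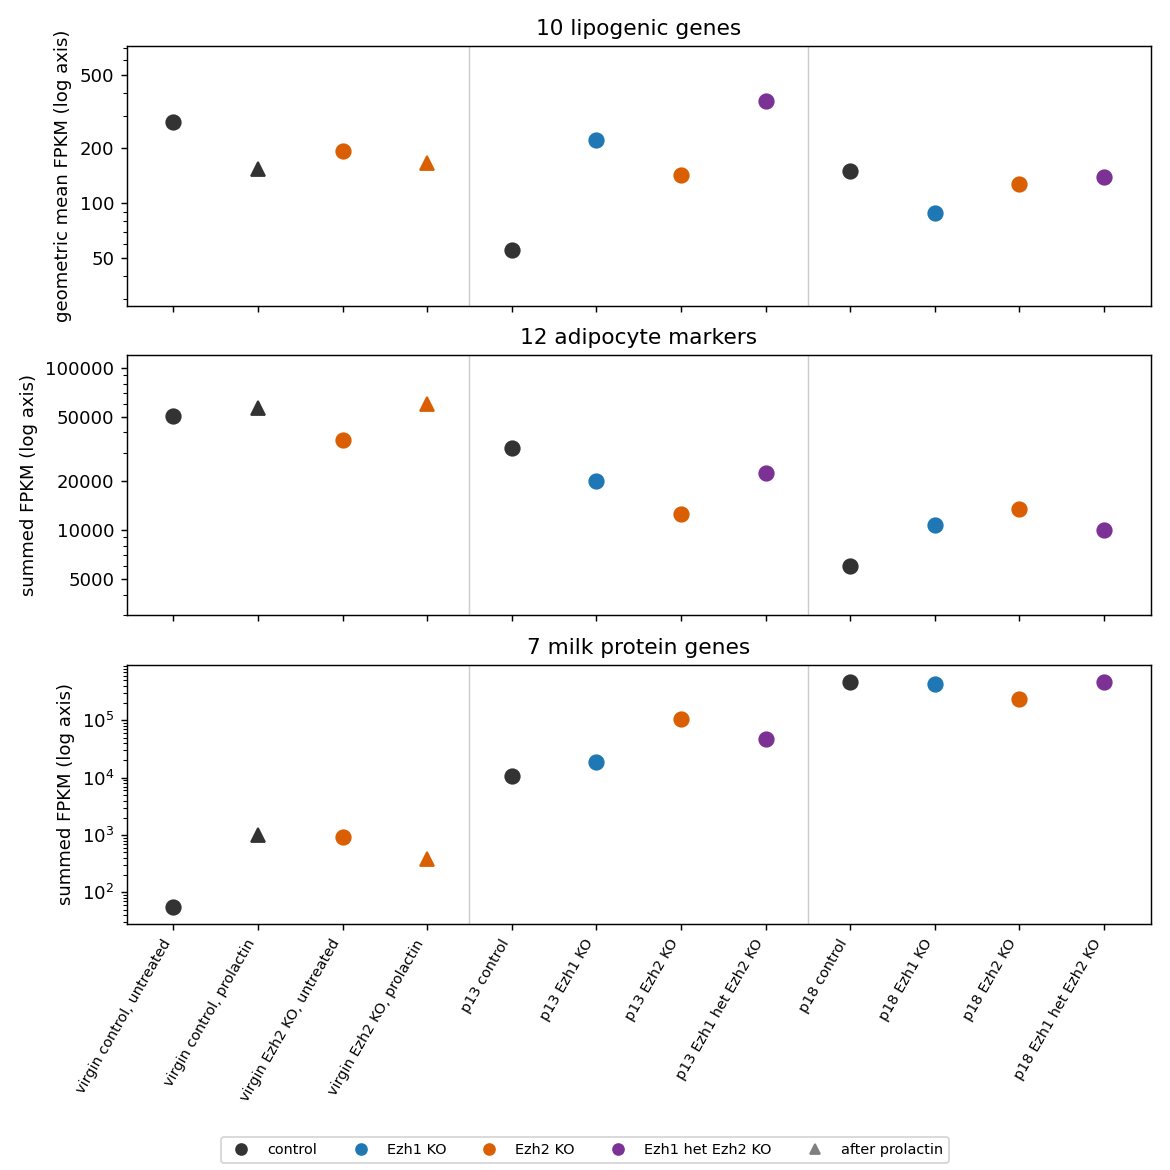
Geometric mean FPKM of the 10 lipogenic genes (top) and summed FPKM of 12 adipocyte markers (middle) and 7 milk protein genes (bottom) in the 12 groups, on log axes, coloured by genotype, with triangles after prolactin. Glycam1 gave 743 of the milk protein sum of 926 in untreated virgin Ezh2 KO and 864 of 1004 in virgin control after prolactin. It gave 2.10 of 381 in virgin Ezh2 KO after prolactin, where every other gene of that list was above control. The lipogenic genes are lowest in the p13 control (55.3), where the adipocyte sum (31872) is the highest of the 8 pregnancy groups and the milk protein sum (10500) the lowest of them.

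How far the scaling of FPKM bears on the counts over all genes is given here once. A common sum shifted the median of all genes by 0.12 for p13 Ezh1 het Ezh2 KO against Ezh2 KO, 0.22 for p18 Ezh2 KO and -0.15 for p18 Ezh1 het Ezh2 KO against control, and -0.39 for p18 Ezh1 het Ezh2 KO against Ezh2 KO. It shifted it by -0.14 and -0.16 for prolactin in control and Ezh2 KO. The numbers of all genes higher and lower went from 340 and 306 to 597 and 165 in p18 Ezh2 KO, from 175 and 221 to 88 and 335 in p18 Ezh1 het Ezh2 KO, and from 165 and 200 to 71 and 610 between these 2 groups. For prolactin they went from 679 and 245 to 574 and 404 in control, and from 392 and 582 to 303 and 852 in Ezh2 KO. For p18 Ezh1 KO a common sum without milk protein genes gave 128 and 346 in place of 173 and 198. A scaling by ubiquitous genes gave 367 and 231 in place of 300 and 325 in p13 Ezh1 KO, with a shift of 0.18, and 541 and 358 in place of 446 and 456 in p13 Ezh1 het Ezh2 KO, with a shift of 0.14. The 10 genes were above the p13 control in all 3 knockout groups under every one of these scalings.

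Between stages the scaling matters more. For p18 against p13 in control the shift of the median ran from -0.45 with a common sum to 0.43 with ubiquitous genes, and 507 genes higher and 2724 lower became 311 and 6071 or 921 and 1404. For p18 against virgin control it ran from -0.53 with a common sum to 0.25 with an upper quartile, and 1114 and 2537 became 655 and 5443 or 1584 and 1763. In p13 against virgin control 1301 and 394 became 932 and 623 with ubiquitous genes, a shift of -0.23, and in Ezh2 KO 1565 and 1300 became 1127 and 2060 with a common sum, a shift of -0.25. For p18 against p13 an upper quartile gave 263 and 109 in place of 157 and 585 in Ezh2 KO, 432 and 695 in place of 222 and 1732 in Ezh1 KO, and 500 and 905 in place of 237 and 2281 in Ezh1 het Ezh2 KO. The shifts of the median there were 0.41, 0.37 and 0.31. A common sum shifted the last 2 by -0.54 and -0.62 and gave 103 and 7453, and 100 and 8276. Fasn, Thrsp, Acly and Acaca were above p13 at p18 in control under all the scalings tried.

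The 10 genes varied together over the 12 groups to different degrees. Pearson correlations of log2(FPKM + 1) between pairs of them ran from -0.22 to 0.93 with a median of 0.64 over 45 pairs. The groups share tissue composition and scaling, so these values are descriptions. Slc25a1 and Me1 were the closest pair (0.93), followed by Acaca with Fasn and Fasn with Elovl6 (0.88 each), then Acly with Srebf1 and Slc25a1 with Fasn (0.86 each). Srebf1 with Scd1 had the lowest value (-0.22). Over the 8 pregnancy groups alone the pairs differed from this: Srebf1 with Scd1 was at 0.61, Acly with Scd1 at 0.85 in place of -0.05, and the lowest pair, Scd2 with Thrsp, at 0.37. Against the mean of the other 9 genes, Fasn reached 0.96, Slc25a1 0.93, Elovl6 0.89, Me1 0.85, Acaca 0.81, Scd2 0.73, Thrsp 0.71, Acly 0.59, Scd1 0.56 and Srebf1 0.36. Without the p13 control, a choice made after its values were seen, Fasn was at 0.95, Acaca at 0.65, Thrsp at 0.48, Acly at 0.45, Scd1 at 0.42 and Srebf1 at 0.38.

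**Figure D5:**
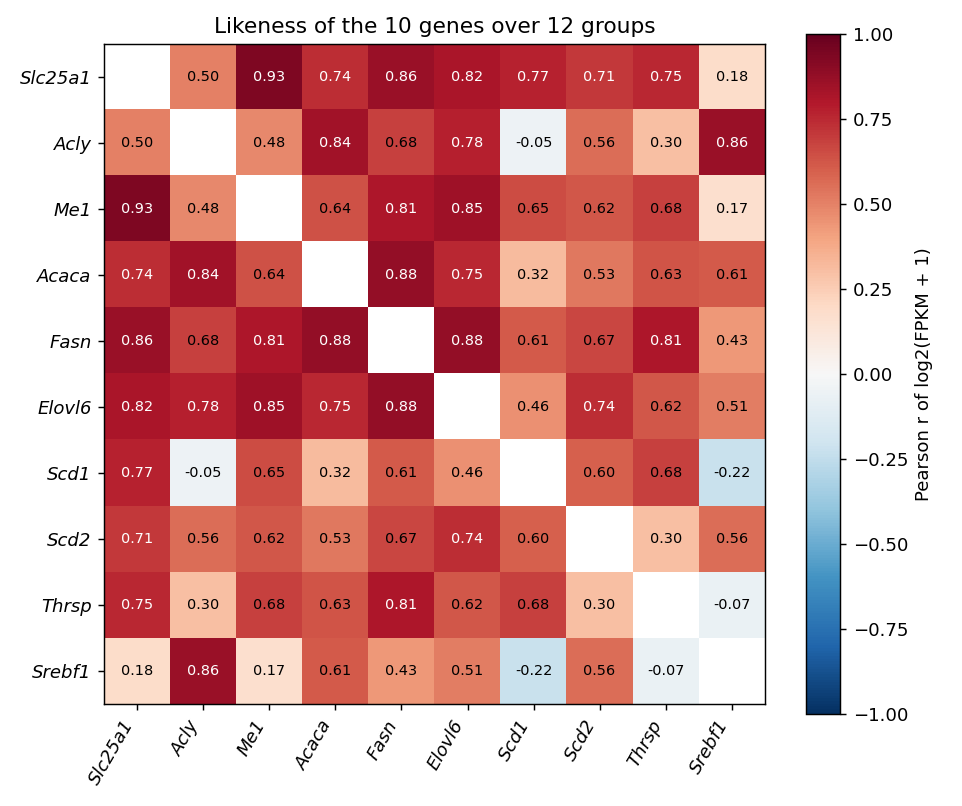
Pearson r of log2(FPKM + 1) between each pair of the 10 genes over the 12 groups, as colour and number, from -0.22 (Srebf1 with Scd1) to 0.93 (Slc25a1 with Me1). Fasn has values of 0.43 to 0.88 with the others, and Srebf1 has 0.86 with Acly, -0.22 with Scd1 and -0.07 with Thrsp, the last 2 being 0.61 and 0.42 over the 8 pregnancy groups.

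Among 8312 protein-coding genes outside the set that reached 10 FPKM in any group, Acss2 had the pattern most like the mean of the 10 genes (Pearson r 0.95 over 12 groups). It encodes the cytosolic acetyl-CoA synthetase, which makes acetyl-CoA from acetate. Its level was 84.2 FPKM in untreated virgin control, 12.7 in the p13 control and 110 in p13 Ezh1 het Ezh2 KO. Next came Tkt, the transketolase gene of the pentose phosphate pathway (0.91), Gm6484 (0.84), Gbp6, a guanylate-binding protein gene (0.84), and Nsdhl, a gene of cholesterol synthesis (0.83). By Spearman rank correlation Acss2 was again first (rho 0.96) and Nsdhl shared the fifth place (0.88) with Pcx, while Tkt had a rho of 0.69. Between Acss2 and Nsdhl by rank came Pcyt2 (0.94), the liver marker Apoa1 (0.92, with a Pearson r of 0.45) and H2-Q10 (0.90). Over the 11 groups without the p13 control, Acss2 was at 0.96 and Tkt at 0.85, and 2 of the first 5 genes were shared with the list over 12 groups.

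The other enzymes of fatty acid synthesis and remodelling, 14 genes of which all but Scd3 and Scd4 reached 1 FPKM in any group, differed less together. Of the other 12, those past the threshold upwards and downwards at p13 were 3 and 1 in Ezh2 KO (median 0.31), 1 and 0 in Ezh1 KO (0.05) and 2 and 0 in Ezh1 het Ezh2 KO (0.27). Acss2 was counted as higher in all 3, at 28.4, 64.0 and 110 FPKM against 12.7 in control. Olah, the thioesterase that ends chain growth early for milk fat, was at 78.4 in Ezh2 KO, 21.4 in Ezh1 KO and 39.2 in Ezh1 het Ezh2 KO against 10.5. Fads3, a gene of the fatty acid desaturase family, was 3.31-fold lower in Ezh2 KO. At p18 Olah was at 431 FPKM in control, 387 in Ezh1 KO, 181 in Ezh2 KO and 430 for Ezh1 het Ezh2 KO. In p18 Ezh2 KO the elongase gene Elovl5 was 2.60-fold lower than control and Fads3 2.53-fold higher. In p18 Ezh1 KO the delta-6 desaturase gene Fads2 (2.32-fold) and Acacb (2.34-fold) were lower.

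Olah per unit of Fasn separated the stages. The ratio was 0.000183 to 0.00249 in the 4 virgin groups and 0.869 to 2.55 in the 4 p18 groups. Olah itself was under 1 FPKM in the virgin groups, so the exact ratios there are uncertain. At p13 it was 0.264 in control and 0.262 in Ezh2 KO, against 0.0492 in Ezh1 KO and 0.0508 in Ezh1 het Ezh2 KO. Control and Ezh2 KO thus had nearly the same ratio at p13 although their Fasn levels were 39.9 and 299 FPKM.

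Among 12 regulators, all of which reached 1 FPKM in any group, few were counted at p13: 0 higher and 1 lower in Ezh2 KO (median -0.0043), 0 and 0 in Ezh1 KO (0.09) and 1 and 0 in Ezh1 het Ezh2 KO (0.24). The lower gene was Nr1h3, which encodes the liver X receptor alpha, at 16.2 against 38.3 FPKM, and the higher one Insig1, at 89.5 against 35.9. Against Ezh2 KO, Ezh1 het Ezh2 KO had 3 regulators higher: Mlxipl (2.99-fold), which encodes the carbohydrate-responsive factor ChREBP, Insig1 (2.59-fold) and Mid1ip1 (2.16-fold), a paralog of Thrsp. At p18 Insig1 was 3.56-fold lower in Ezh1 KO than in control and was the only regulator counted there, and 0 were counted in the other genotypes.

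The supply of pyruvate and NADPH was covered by 11 further genes. At p13, 1 was higher and 1 lower in Ezh2 KO (median -0.07), 1 and 0 in Ezh1 KO (0.34) and 2 and 0 in Ezh1 het Ezh2 KO (0.68). Tkt was the gene higher in all 3, at 309, 414 and 609 FPKM against 133 in control. In Ezh1 het Ezh2 KO Pcx, the pyruvate carboxylase gene, was also 2.5-fold higher, and G6pdx, the glucose-6-phosphate dehydrogenase gene, was 2.65-fold lower in Ezh2 KO. At p18 Idh1 was 2.15-fold higher in Ezh2 KO, and 0 genes were counted in the other genotypes. From virgin to p13 in control 5 of 11 were lower and 0 higher (median -0.92), with Tkt (3.11-fold), the mitochondrial pyruvate carrier gene Brp44l, now named Mpc1 (2.68-fold), and Pcx (2.47-fold) the furthest. Averaged over their genes, this list correlated with the 10 genes at 0.75 over the 12 groups and 0.80 over the 8 pregnancy groups. The other enzymes of fatty acid synthesis had -0.03 and 0.60, and the regulators 0.59 and 0.51. For the adipocyte markers the same values were 0.24 and -0.01, for the milk protein genes -0.32 and -0.01, for liver markers 0.51 and 0.48, for lymphocyte markers 0.31 and 0.61 and for skeletal muscle markers -0.42 and -0.42. These values describe 12 or 8 pooled groups that share tissue composition and scaling.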

How the data were processed

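Poly(A) RNA from whole mouse mammary glands was analysed as 1 deposited table of FPKM for 22552 genes, in which the authors give 1 value for each of 12 groups. No source used here says how the libraries of each group were pooled. Per the submitters' processing notes, the tools were TopHat, Cufflinks, Cuffdiff, Bowtie, BWA, CASAVA, HOMER, FastQC and Trim Galore, with no versions or roles, and the build was mm9. The 9 chromatin immunoprecipitation samples were left out.

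The labels gave each sample its group. Differences are log2(FPKM + 1), which understates changes at low levels, and a fold is the quotient of the FPKM values themselves. Genes with at least 1 FPKM in any group (14273) gave the background, and a difference of 1 or more was counted. With 1 value per group no test, interval or paired fit could be made. Depth is unknown: among 1282 genes under 0.05 FPKM in both the p13 control and Ezh2 KO, the most common ratio covered 2.18%, so whole reads were not recovered. None of 14 ubiquitous genes was listed at 0.

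The members, lists, threshold and named genes were chosen with earlier results of these data known. All 10 members were named in every comparison, of each other list up to 3 genes past the threshold with the largest differences, and the 5 non-members of highest Pearson r among genes reaching 10 FPKM. Marker totals and a few other genes are named beside the results they touch, and were chosen after their values were seen. Older symbols were matched by synonym for Mpc1, Mpc2 and Adgre1. Motifs were searched on both strands of RefSeq promoter windows (GRCm38.p6). The code was tested on simulated data. Calculations used NumPy 2.4.6, pandas 2.3.3 and SciPy 1.17.1 under Python 3.11.15, and figures matplotlib 3.10.9. Alternatives were pseudocounts of 0.1 and 5, filters of none and 5 FPKM, 4 rescalings, a threshold of 2, Spearman correlation and, added after seeing the data, leaving out the p13 control in the correlations. With no filter all 22552 genes entered the background, and all 38 percentages of background genes moved by more than 1.5-fold.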

Additional observations from a re-analysis of the deposited data

How the results depend on the processing

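No paired analysis was possible because each group is 1 pooled value, and for the same reason no replicate could be left out. Over pseudocounts of 0.1 and 5 and the 4 rescalings, 1110 of 1140 differences of single members moved by less than 1.5-fold, 30 moved by more, and none of those past the threshold turned. A pseudocount of 5 left 1 member lower after prolactin in Ezh2 KO, in place of 2. For p18 Ezh1 het Ezh2 KO against control, 2 members were lower with a common sum, with a common sum without milk protein genes and when scaled by ubiquitous genes, in place of 0. A common sum moved the members' median to -1.69 for p18 against virgin control, -2.06 for p18 against p13 in Ezh1 KO and -2.23 in Ezh1 het Ezh2 KO. For p18 against virgin control 3 members were lower without milk protein genes, 2 with an upper quartile and 3 when scaled by ubiquitous genes, in place of 5. An upper quartile also gave 1 member higher for p18 against p13 in Ezh2 KO, in place of 0, and 4 lower in Ezh1 KO, in place of 7. With a threshold of 2 log2 units, members higher at p13 were 2 in Ezh2 KO, 3 in Ezh1 KO and 0 for Ezh1 het Ezh2 KO against Ezh2 KO. Of the 14273 background genes, 88, 141 and 77 were higher in these comparisons. That threshold left 0 members lower in p18 Ezh2 KO, p18 Ezh1 KO, untreated virgin Ezh2 KO and after prolactin in either genotype, by construction. Background genes lower there were 69, 49 and 35, then 44 after prolactin in control and 159 in Ezh2 KO. The same threshold left 1 member lower for p18 against virgin control, 1 for p13 against virgin in Ezh2 KO, and 1 and 2 for p18 against p13 in Ezh1 KO and Ezh1 het Ezh2 KO. Background genes lower in these comparisons were 676, 218, 181 and 192. The cause of the other shifts was not tested.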
